A study of Homo sapiens with 12 samples.

Results

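The genes that encode the proteasome subunits were followed through 2 experiments on SH-SY5Y cells, a line subcloned from a human neuroblastoma whose cells grow neurite-like processes under all-trans retinoic acid (ATRA). Members were chosen by symbol alone, as PSMA, PSMB, PSMC, PSMD or PSME followed by a number, without the immunoproteasome genes PSMB8, PSMB9 and PSMB10 and without pseudogenes, which gave 40 of the 55765 symbols counted. In the co-treatment experiment, 3 cultures received ATRA and hydrogen peroxide (H2O2) together for 7 days, and the 3 controls were grown with ATRA but no H2O2 for the same 7 days. In the pre-treatment experiment, H2O2 was applied to 3 cultures during the 72 h that preceded 7 days of ATRA, and the 3 controls went through ATRA without earlier H2O2. All 12 libraries thus came from ATRA-treated cells, and no library of undifferentiated cells was analysed here. The H2O2 dose was 10 mM in the deposited design text, whereas the methods of the study state the same figure in μM, so the dose is uncertain. All cultures came from 1 cell line, and nothing in the labels ties the same replicate number to a shared day or batch.

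The proteasome is the protease that degrades most proteins tagged with ubiquitin. Its core particle is a barrel of stacked rings, in which the PSMA genes encode the outer alpha subunits and the PSMB genes the inner beta subunits, with PSMB5, PSMB6 and PSMB7 carrying the chymotrypsin-like, caspase-like and trypsin-like active sites. The regulatory particle sits on the core and consists of a base, with the PSMC ATPases that unfold and feed in the substrate, and a lid of PSMD subunits, among which PSMD14 removes ubiquitin. The PSME genes encode alternative activators that bind the same end of the core and work without ATP, and the transcription factors NFE2L1 and NFE2L2 are known to raise proteasome genes after proteasome inhibition and oxidative stress, respectively, through antioxidant response elements. Core particles without a regulatory particle, and those with the PSME1 and PSME2 activator, are known to take part in the removal of oxidised proteins.

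Genes received 27576276 to 63182696 reads per library in the co-treatment experiment and 41780221 to 98287391 in the pre-treatment experiment. Neuroblast and neuronal markers summed to between 2133 and 4106 CPM (counts scaled to the counted reads of the library), against 84.4 to 296 CPM for mesenchymal, 4.38 to 7.31 CPM for Schwann cell and at most 1.29 CPM for leucocyte markers. In the pre-treatment experiment, controls 1 and 2 stood apart from control 3 and from all other libraries. They held 0.800 and 0.830 reads outside genes per counted read, compared with 0.200 in control 3 and 0.263 to 0.462 elsewhere, and 1.59% and 2.88% of their counted reads lay on small structured RNA loci, compared with 17.6% in control 3 and 5.04% to 15.1% elsewhere. The pre-treatment results are given over all 6 libraries and over the 5 libraries without control 3. That library was known from earlier results of these data to differ from controls 1 and 2. Leaving out control 3 keeps the pair of controls with the most reads outside genes.

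To show sequence that bears on these genes, the promoter windows of RefSeq (build GRCh38.p14, 250 bases before to 50 after each start) were searched on both strands. Windows were found for 35 of the 40 members. PSMA7, PSMB1, PSMB6, PSMB7 and PSMD4 had none. TGACNNNGC, the core of the antioxidant response element, was present for 12 of the 35 members (34.3%), compared with 16.1% of the 27305 genes with a window. CCGGAAG, a site of the ETS family, was present for 13 members (37.1%, 12.2% of all genes), GGGCGG of the SP1 family for 23 (65.7%, 48.3% of all genes) and CCAAT, the NF-Y box, for 18 (51.4%, 39.7% of all genes). The 250 bases before the start are printed for 4 of the 12 members with the response element core, a beta subunit and 3 activators. Over all 6 pre-treatment libraries none of the 4 was called, and over the 5 without control 3 PSMB3, PSME1 and PSME2 were called higher and PSME4 lower. In that fit over 5 libraries, the core was present for 5 of the 20 members called higher that had a window. It was present for 6 of the 13 members not called or not tested, and for 1 member called lower, PSME4. TGACNNNGC on either strand and CCAAT are in capitals, and each sequence reads 5′ to 3′ on the strand of its gene.
PSMB3 (chr17:38752491-38752740, plus strand): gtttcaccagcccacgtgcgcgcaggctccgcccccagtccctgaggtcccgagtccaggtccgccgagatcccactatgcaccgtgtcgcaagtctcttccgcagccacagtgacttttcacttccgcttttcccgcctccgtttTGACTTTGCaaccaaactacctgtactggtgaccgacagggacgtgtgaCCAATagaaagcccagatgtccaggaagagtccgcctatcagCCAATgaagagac
PSME1 (chr14:24135944-24136193, plus strand): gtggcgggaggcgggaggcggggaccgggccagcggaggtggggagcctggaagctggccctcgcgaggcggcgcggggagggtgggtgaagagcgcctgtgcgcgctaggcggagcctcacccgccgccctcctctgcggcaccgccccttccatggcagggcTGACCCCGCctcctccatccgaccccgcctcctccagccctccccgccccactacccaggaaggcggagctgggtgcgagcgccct
PSME2 (chr14:24146611-24146860, minus strand): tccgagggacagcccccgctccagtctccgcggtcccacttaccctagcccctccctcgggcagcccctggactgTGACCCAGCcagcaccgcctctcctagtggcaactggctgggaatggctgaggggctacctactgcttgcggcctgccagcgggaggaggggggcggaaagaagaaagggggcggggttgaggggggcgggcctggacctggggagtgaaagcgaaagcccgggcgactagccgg
PSME4 (chr2:53970994-53971243, minus strand): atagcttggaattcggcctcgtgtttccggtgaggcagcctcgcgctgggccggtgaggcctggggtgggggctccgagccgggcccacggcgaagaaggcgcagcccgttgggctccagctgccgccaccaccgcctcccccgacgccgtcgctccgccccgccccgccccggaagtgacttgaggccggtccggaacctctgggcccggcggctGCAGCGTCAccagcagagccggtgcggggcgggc
In PSMB3 the first base of the core lay 104 bases before the start, and both CCAAT boxes lay between the core and the start. In PSME1 and PSME2, neighbours on chromosome 14, it lay 86 and 175 bases before the start, and in PSME4, on the opposite strand, 34 bases before it. Such matches describe letters and are not binding sites.

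Of the 40 members, 38 passed the filter on low counts in every comparison. The other 2 were PSMA8, an alpha subunit known from testis, and PSMB11, a beta subunit known from thymic epithelium. PSMA8 had 16 reads in all 12 libraries, 12 of them in control 1 of the co-treatment experiment, and PSMB11 had 7 reads, and each was at 0 in 9 libraries. The floor was set at 3 reads, which is 0.00437 CPM over all 12 libraries. The 12 reads of PSMA8 in 1 control lay above 3, and PSMB11 had at most 3 reads in any library. A single library does not show that PSMA8 is expressed. Elsewhere both genes were at or near the background of counting. The immunoproteasome gene PSMB10 had 119 to 316 reads per library, whereas PSMB8 and PSMB9 were at 0 in all 12 libraries. Both lie in the major histocompatibility complex on chromosome 6, where TUBB, a tubulin gene in wide use, had 6 reads in all and TAP1 none, so the zeros of PSMB8 and PSMB9 cannot be read as absence of their RNA.

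Levels were compared between members as reads per kilobase of the canonical transcript, scaled to depth as for CPM (RPKM), averaged over the 12 libraries. PSMB4, a beta subunit without an active site, was highest at 420 RPKM ± 95.3 (SD, n = 12), above PSMD4, the ubiquitin receptor of the base, at 199.9 ± 37.4 and the alpha subunit PSMA7 at 193 ± 37.9. PSMD4 and PSMA7 differed by less than the spread between libraries. The catalytic subunits lay close together, with PSMB5 at 116 RPKM ± 26.4, PSMB7 at 110.4 ± 24.4 and PSMB6 at 104 ± 23.9. This SD spans libraries that all genes share, so it does not measure the order of genes within a library, which was not tested. Among the 38 tested members, the lowest were PSMD9 at 4.05 RPKM ± 0.570, PSMD5 at 8.33 ± 0.739 and PSMA6 at 10.5 ± 2.11. PSMD9 and PSMD5 encode chaperones that help to build the base and leave the finished particle. PSMD10, another chaperone gene of the base, was higher, at 24.5 RPKM. PSMA6 is a stoichiometric subunit of the alpha ring, but its locus (build GRCh37, chr14:35747839-35786699) overlaps another protein-coding gene on the same strand, and reads that fall on both genes would be set aside by the counting tool, so its level is uncertain. The same overlap with a protein-coding gene on the same strand held for 5 members, namely PSMA1, PSMA2, PSMA6, PSMC2 and PSMD9, whose levels are uncertain in the same way. With annotated genes of any type included, 9 members overlapped a gene on the same strand. PSMA3, PSMB5, PSMD1 and PSMD14 were added by this, and their levels carry the same uncertainty. With the union of all annotated exons in place of the canonical transcript, the level of PSMB4 became 182 RPKM and remained first, and PSMD9 remained last of the 38 at 1.26 RPKM.

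**Figure D1:**
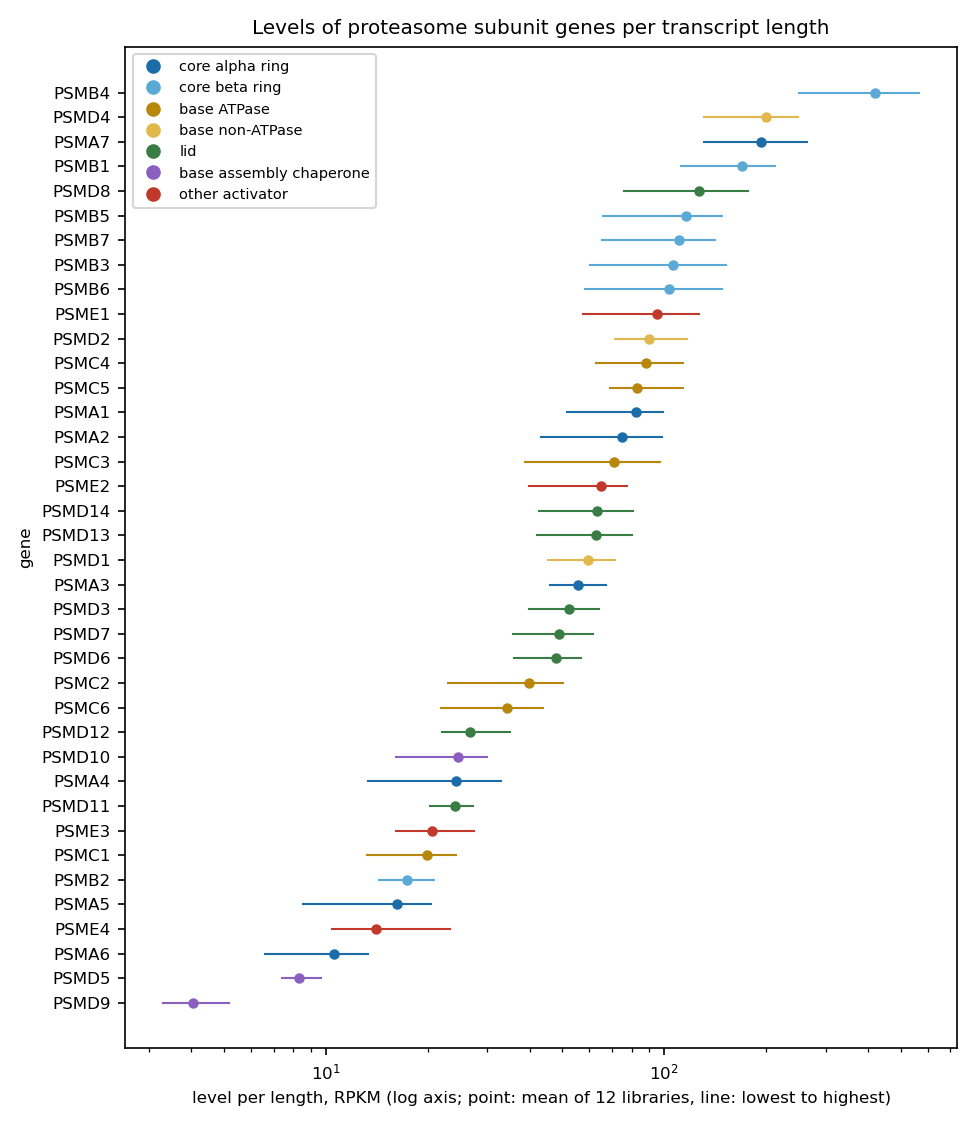
Mean level of each of the 38 members over 12 libraries, in RPKM on a log axis, with a line from the lowest to the highest library and colour for the role of the subunit. PSMB4 stood highest at 420 RPKM, and the chaperone gene PSMD9 lowest at 4.05 RPKM.

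The members also differed in how steady they were. PSMD11, a lid subunit, varied least over the 12 libraries, with a coefficient of variation of 8.36%, and PSME4, the gene of the large activator that caps the core as a single chain, varied most, at 30.0%. For 27 of the 38 members the lowest of the 12 libraries was control 2 of the pre-treatment experiment. The highest library was control 3 of that experiment for 12 members and H2O2 culture 2 of the co-treatment experiment for another 12. For 3 members, PSME4, PSME3 and the chaperone gene PSMD5, control 2 of the pre-treatment experiment was the highest library.

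**Figure D2:**
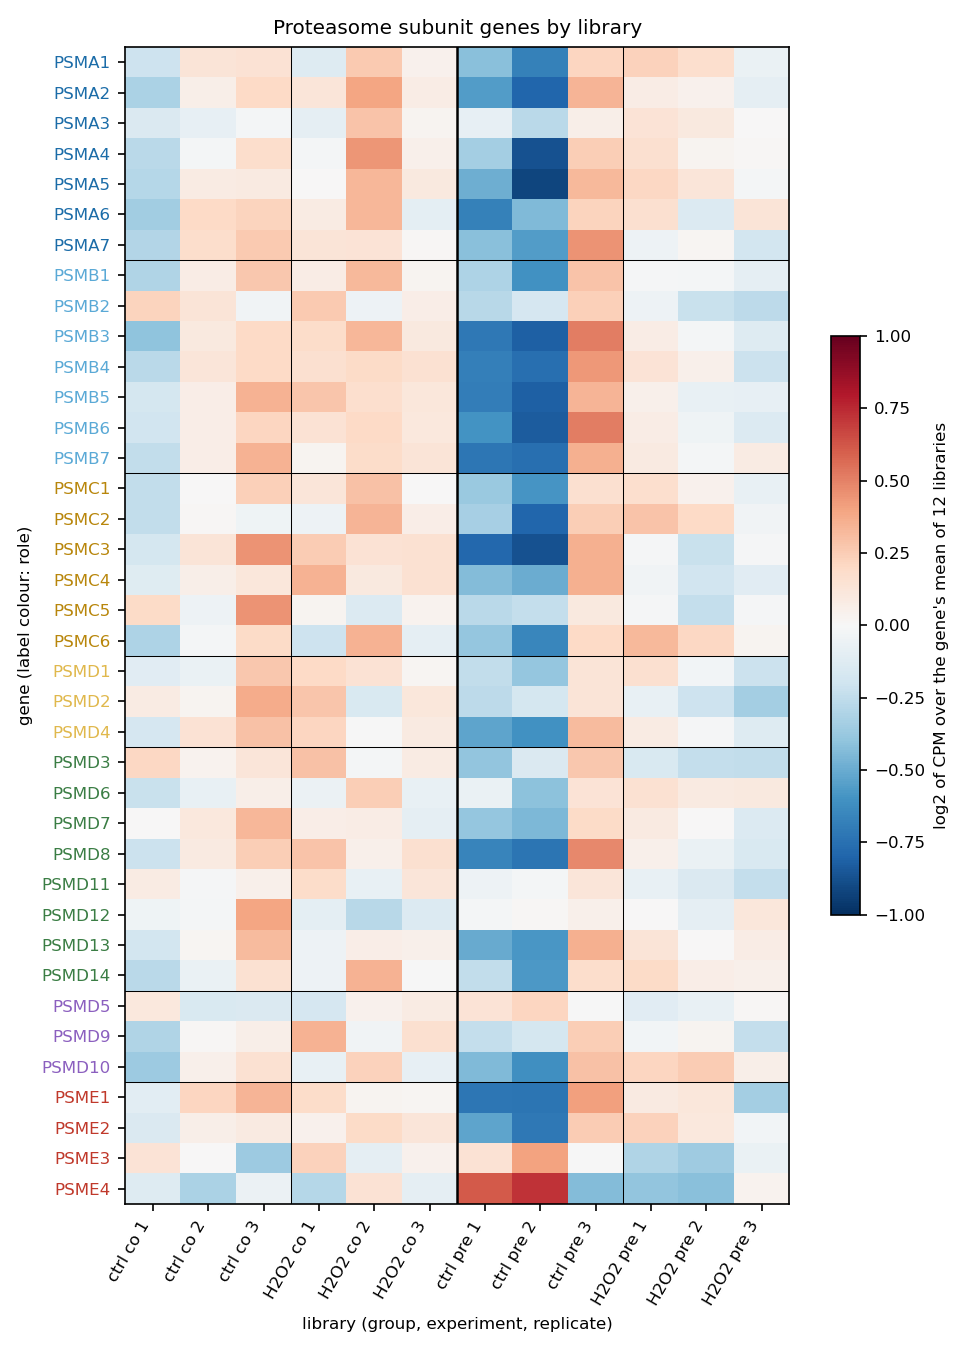
Each cell gives the log2 of a gene's CPM over its own mean of 12 libraries, with genes in rows by role (label colours as for the levels) and libraries in columns by group, where ctrl is control. Controls 1 and 2 of the pre-treatment experiment are blue (low) for most rows and red (high) for PSME4 in the last row, and control 3 is red for most rows.

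Co-treatment with H2O2 was not accompanied by a change in any proteasome subunit gene that passed the test. None of the 38 members was called at a false discovery rate (FDR, the adjusted p of edgeR's quasi-likelihood test) under 0.05, where 0.598% of the 22089 genes tested were called, and none had an unadjusted p under 0.05, where 8.15% of all genes did. No member was called by DESeq2, limma-voom or edgeR's exact test either. The log2 fold change (log2FC, H2O2 over control) was above 0 for 31 members and below 0 for 7, compared with 49.9% of all genes above 0, with a median of 0.09 beside -0.001 over all genes. The median fell to 0.01 without control 1 and rose to 0.20 without control 3, so its size rested on single libraries. In bulk libraries such as these, a change in the share of cells of one kind and a change in RNA per cell cannot be told apart.

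In the core particle, all 7 alpha subunits had a log2FC between 0.03 and 0.21 and the 7 beta subunits between -0.01 and 0.23. PSMB5, the chymotrypsin-like subunit and the main target of proteasome inhibitors, measured 107, 127 and 155 CPM in the controls and 147, 136 and 131 CPM after co-treatment. The groups overlapped, with a log2FC of 0.09 ± 0.14 (SE, n = 3 and 3, adjusted p = 0.933). PSMB6 had a log2FC of 0.11 ± 0.13 and PSMB7 of 0.04 ± 0.15. The largest value among beta subunits was that of PSMB3, a structural subunit, at 61.4, 86.5 and 93.0 CPM in controls and 92.2, 102 and 86.6 CPM after co-treatment, for a log2FC of 0.23 ± 0.16 (adjusted p = 0.802). Control 1 was the lowest control here.

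In the regulatory particle, the ATPase genes PSMC2 and PSMC4 had log2FC of 0.22 ± 0.14 (adjusted p = 0.774) and 0.19 ± 0.12 (adjusted p = 0.795), and the ATPase gene PSMC5 had -0.23 ± 0.14 (adjusted p = 0.769). Among the lid genes, PSMD12, a scaffold subunit, was the only one of the 38 members whose groups did not overlap, where 7.30% of all genes were lower in every H2O2 library and 6.65% higher. PSMD12 measured 113, 114 and 153 CPM in the controls and 109, 95.8 and 105 CPM after co-treatment. Its log2FC of -0.29 ± 0.14 had an adjusted p of 0.652, and the distance between the groups rested on control 3. The chaperone gene PSMD9 had the largest positive value of the members, 0.23 ± 0.17 (adjusted p = 0.810). The lid gene PSMD7 and the activator gene PSME1 had values of -0.13 ± 0.13 and -0.08 ± 0.14, and the activator genes PSME3 and PSME4 of 0.13 ± 0.15 and 0.10 ± 0.14.

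**Figure D3:**
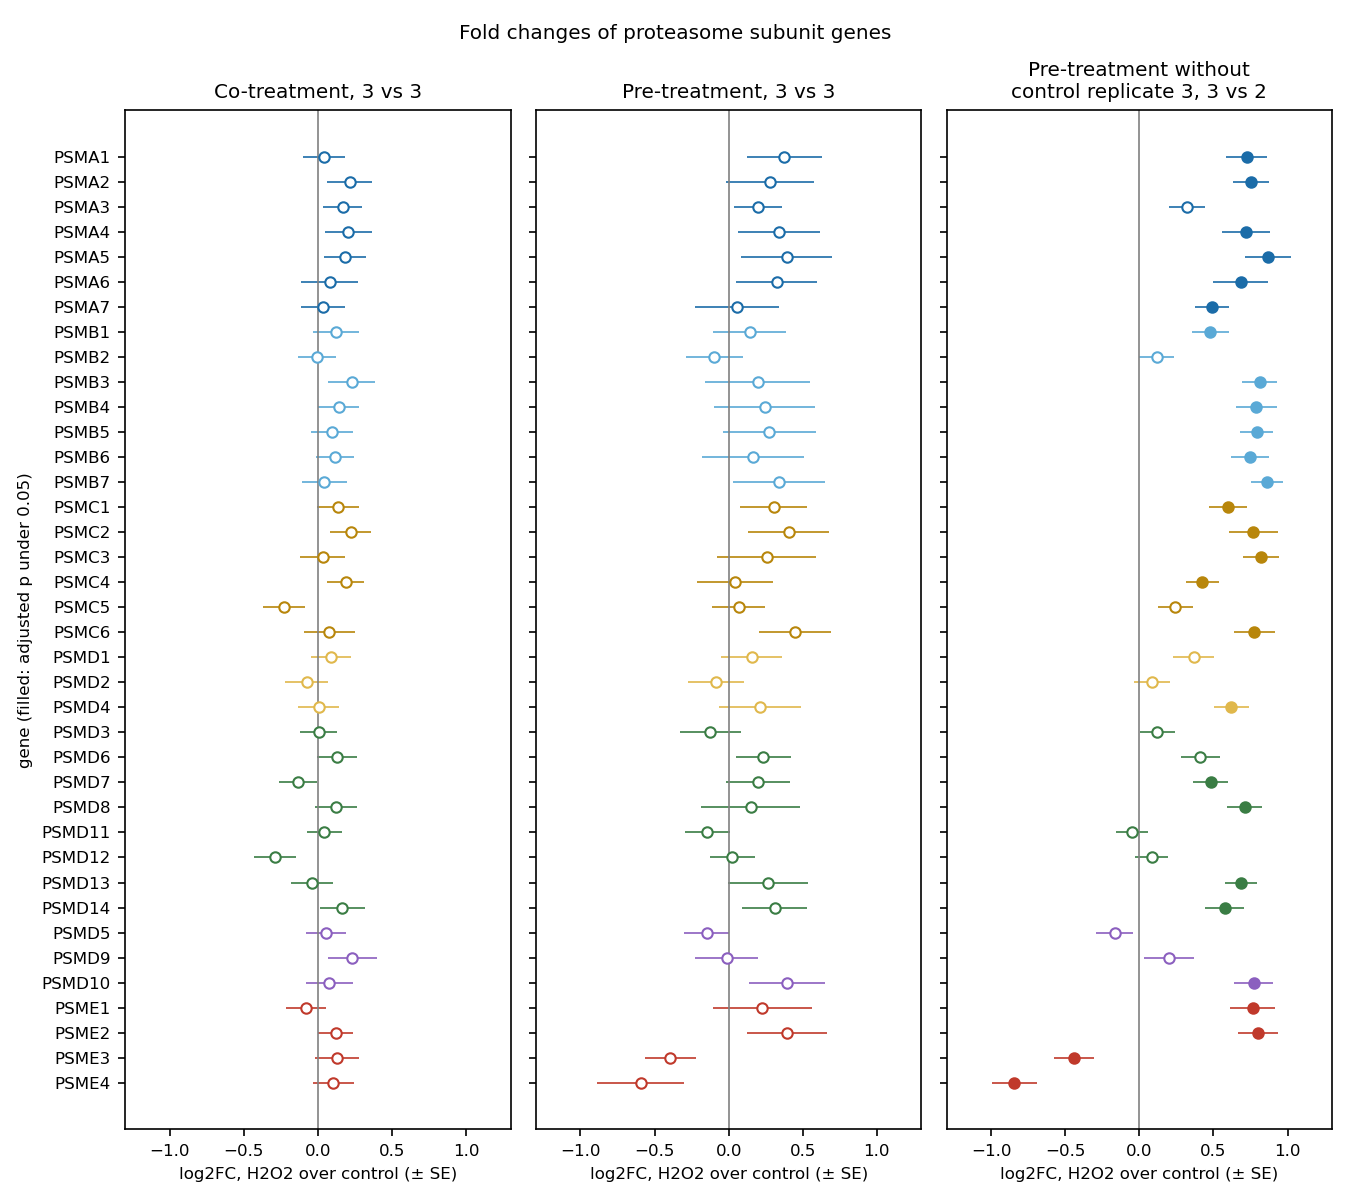
The log2FC of each member, H2O2 over control, with its SE as a bar, for co-treatment, pre-treatment over 6 libraries and pre-treatment without control 3, where filled points have an adjusted p under 0.05 and colours give the role. No point is filled in the first and second panels, and 27 are filled in the third, of which PSME3 and PSME4 lie below 0.

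Over all 6 libraries of the pre-treatment experiment, no member passed the test either, where 0.0242% of the 24743 genes tested were called. Of the members, 1 had an unadjusted p under 0.05, whereas 11.2% of all genes did, and DESeq2, limma-voom and edgeR's exact test called none. The log2FC was above 0 for 30 members and below 0 for 8, compared with 49.4% of all genes above 0, with a median of 0.20 beside -0.01 over all genes. PSMC6, PSMC2, PSMD10 and PSMA1 had the smallest p among the positive values, with log2FC of 0.45 ± 0.24, 0.40 ± 0.27, 0.40 ± 0.26 and 0.38 ± 0.25. PSME3, which encodes a nuclear activator, was the member with an unadjusted p under 0.05. It measured 72.4, 87.0 and 65.4 CPM in controls 1 to 3 and 53.4, 51.4 and 62.9 CPM after pre-treatment, so that every H2O2 library lay below every control, as for 8.02% of all genes. Its log2FC of -0.39 ± 0.17 had an adjusted p of 0.442, and that of PSME4, -0.59 ± 0.29, an adjusted p of 0.488.

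The controls of this experiment did not form 1 level for these genes. With CPM scaled over the 6 libraries, control 3 lay above both other controls for 35 of the 38 members (92.1%), compared with 42.2% of all genes, and above all 3 H2O2 libraries for 27 members (71.1%), compared with 32.7% of all genes. For the remaining 11 members it lay between the lowest and the highest H2O2 library. The summed core genes show this, at 1144 and 1017 CPM in controls 1 and 2, 2101 CPM in control 3 and 1734, 1653 and 1514 CPM after pre-treatment. The co-treatment experiment ranged from 1387 to 1928 CPM for the same sum, so that controls 1 and 2 lay below all other libraries and control 3 above them. With control 3 as the only control, a fit chosen after the data were seen, the median log2FC of the members was -0.26. Its spread between cultures comes from the H2O2 libraries alone, so this is a value and no test is drawn from it. The direction of the comparison thus depended on which controls were used.

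**Figure D4:**
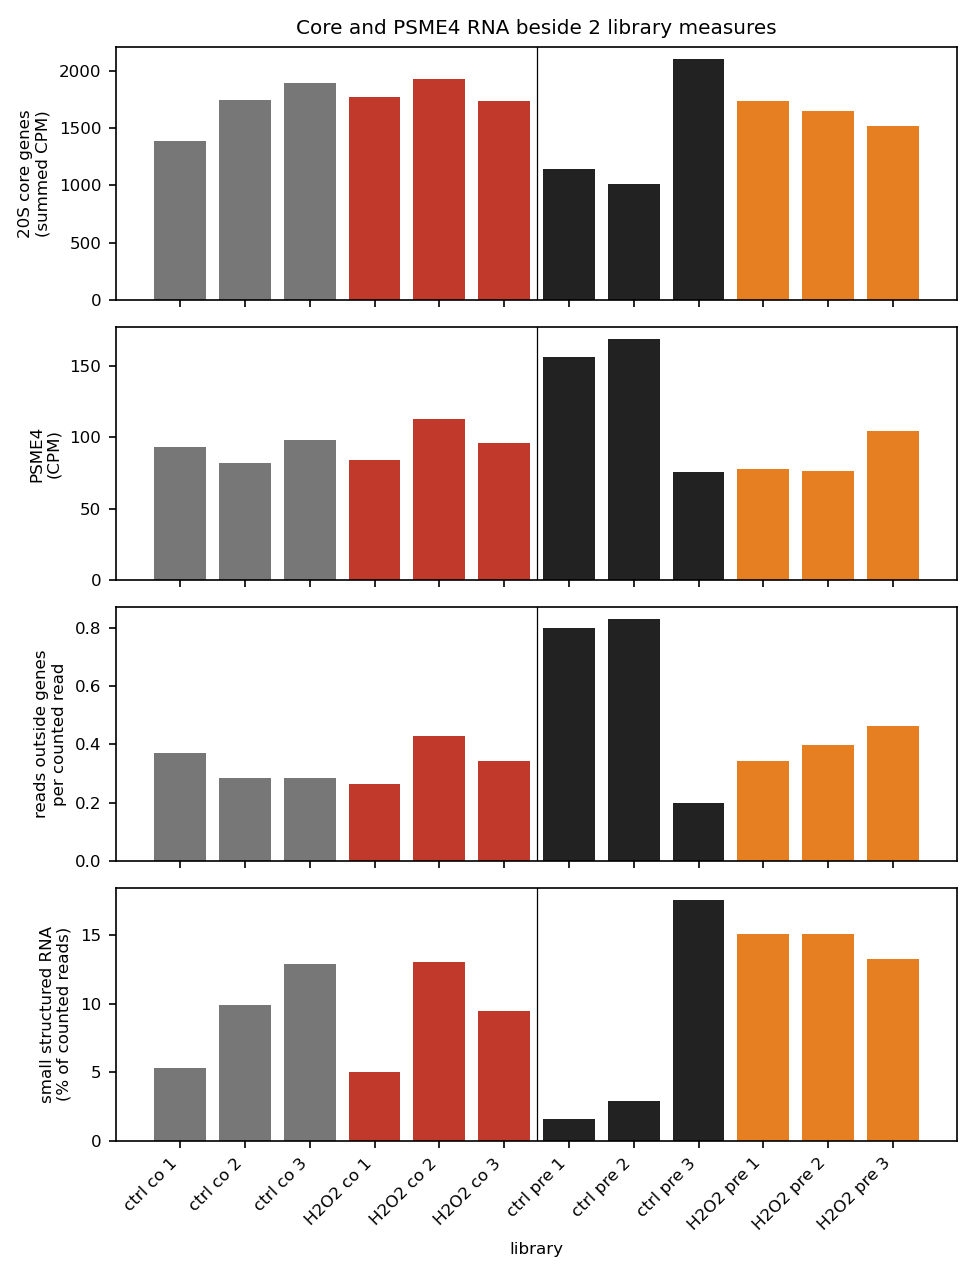
Bars give, for each of the 12 libraries, the summed CPM of the 14 core genes, the CPM of PSME4, the reads outside genes per counted read and the percentage of counted reads on small structured RNA loci. Controls 1 and 2 of the pre-treatment experiment are low in the first panel (1144 and 1017 CPM) and in the last, and high in both panels between.

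Without control 3, most proteasome genes were higher after pre-treatment. Of the 38 members, 25 were called higher and 2 lower, where 13.2% of the 26350 genes tested were called higher and 12.8% lower. The median log2FC of the members was 0.61, beside 0.01 over all genes. No member passed when an absolute log2FC above 1 was also required, whereas 11.2% of all genes did. The reads outside genes and the small structured RNA differed between the same 2 controls and the H2O2 libraries, and their part in these fold changes was not tested. Marker genes of cell identity moved between the same libraries. Of 7 mesenchymal markers, 3 were called higher and none lower, namely VIM (vimentin) at 2.66 ± 0.20, YAP1 at 3.11 ± 0.81 and CD44 at 1.11 ± 0.31. The others went both ways, with COL1A2 at 3.10 ± 1.01 (adjusted p = 0.053) and SNAI2 at 0.27 ± 0.21. COL1A1, at -1.05 ± 0.35 (adjusted p = 0.057), and FN1, at -0.53 ± 0.27, lay below 0. The mesenchymal list summed to 296 and 159 CPM in the 2 controls and 135 to 188 CPM after pre-treatment. Of 11 neuroblast and neuronal markers, 1 was called higher, ISL1 at 0.37 ± 0.12, and 4 lower, namely DBH at -1.72 ± 0.45, GATA3 at -1.44 ± 0.31, MAPT at -0.94 ± 0.21 and PHOX2A at -0.73 ± 0.19, while the list summed to 2995 and 4106 CPM in the 2 controls and 2133 to 2469 CPM after pre-treatment. None of the 4 Schwann cell markers and of the 4 leucocyte markers, of which 1 passed the filter, was called. The collagen gene COL1A2, a defining mesenchymal marker, had 1 read in each of the 2 controls and 5 to 20 reads after pre-treatment, and CD3E, which marks T cells, was at 0 in 3 of the 5 libraries. Over all 6 libraries VIM was the 1 marker of these lists still called, at 2.42 ± 0.24 (adjusted p = 0.0443). The part of these markers in the fold changes of the proteasome genes was not tested. The count of members was 19, with 17 higher, when libraries were scaled by their size alone, which lowered the median of all genes to -0.21 and that of the members to 0.39. It was 7, all higher, when control 2 was left out as well, in a fit that assumes the lone control to vary like the H2O2 libraries.

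In the core, 6 of 7 alpha subunits and 6 of 7 beta subunits were called higher, all but PSMA3 and PSMB2. PSMB7, the trypsin-like subunit, measured 65.7 and 64.4 CPM in controls 1 and 2 and 115, 107 and 115 CPM after pre-treatment. This was a log2FC of 0.86 ± 0.11 (n = 2 and 3, adjusted p = 0.00199), while control 3, left out here, was at 139 CPM, above every H2O2 library. PSMB5 measured 75.0 and 68.7 CPM in controls 1 and 2 and 126, 115 and 115 CPM after pre-treatment, for a log2FC of 0.79 ± 0.11 (adjusted p = 0.00319), with control 3 at 153 CPM. PSMB6 measured 56.4 and 47.9 CPM in controls 1 and 2 and 89.9, 82.8 and 77.7 CPM after pre-treatment, for a log2FC of 0.75 ± 0.13 (adjusted p = 0.00561), with control 3 at 122 CPM. All 3 catalytic subunits thus rose against controls 1 and 2 and lay below control 3. PSMB3 showed the same order, at 49.3, 46.1 and 116 CPM in controls 1 to 3 and 85.5, 79.8 and 74.1 CPM after pre-treatment, with a log2FC of 0.81 ± 0.12 (adjusted p = 0.00339). The largest value of all members was that of the alpha subunit PSMA5, 0.87 ± 0.16 (adjusted p = 0.00661), named here after its value was seen. The levels of PSMA3 and PSMB2 gave log2FC of 0.32 ± 0.12 (adjusted p = 0.0807) and 0.12 ± 0.12 (adjusted p = 0.489).

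In the regulatory particle, 5 of the 6 ATPase genes were called higher, all but PSMC5, whose log2FC was 0.24 ± 0.12 (adjusted p = 0.160). PSMC3 measured 63.3 and 59.7 CPM in controls 1 and 2 and 108, 93.6 and 109 CPM after pre-treatment, with control 3 at 139.7 CPM. Its log2FC was 0.82 ± 0.12 (adjusted p = 0.00342), the largest among the ATPases. Of the other base genes, the ubiquitin receptor PSMD4 was called, at 0.62 ± 0.12 (adjusted p = 0.00815), and the large scaffolds PSMD1 and PSMD2 were not. In the lid, 4 of 8 genes were called higher, namely PSMD7, PSMD8, PSMD13 and the deubiquitinase PSMD14, at log2FC between 0.48 and 0.71. PSMD12 and PSMD11 were at 0.09 ± 0.11 and -0.05 ± 0.11. Of the base chaperones, PSMD10 was called higher at 0.77 ± 0.13 (adjusted p = 0.00597), while PSMD5, at 31.0 and 32.7 CPM in controls 1 and 2 and 26.1, 26.7 and 28.4 CPM after pre-treatment, had a log2FC of -0.17 ± 0.12 (adjusted p = 0.349).

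The 4 activator genes split. PSME1 and PSME2, which form a ring together and are known as interferon-inducible, were called higher, at 0.76 ± 0.15 (adjusted p = 0.00984) and 0.80 ± 0.13 (adjusted p = 0.00539). PSME1 measured 55.8 and 55.4 CPM in controls 1 and 2 and 97.7, 99.3 and 72.8 CPM after pre-treatment, with control 3 at 122 CPM. PSME4 measured 157 and 169 CPM in controls 1 and 2, against 77.7, 76.7 and 105 CPM after pre-treatment, and control 3, at 75.7 CPM, lay close to H2O2 cultures 1 and 2. PSME4 was called lower, with a log2FC of -0.84 ± 0.15 (adjusted p = 0.00656), and PSME3 with -0.44 ± 0.14 (adjusted p = 0.0443). The call of PSME3 was lost in 4 of the 5 fits that left out 1 more library, and that of PSME4 in 1, without control 2 (log2FC -0.78, adjusted p = 0.0561). Relative to the core, PSME4 amounted to 13.7% and 16.6% of the summed core CPM in controls 1 and 2 of this experiment, to 3.60% in control 3, to 4.48%, 4.64% and 6.90% after pre-treatment and to between 4.70% and 6.74% in the co-treatment experiment. Controls 1 and 2 were thus the libraries that stood apart in this ratio, and the remaining 10 lay between 3.60% and 6.90%.

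The fold changes over 5 libraries also differed with the length of the transcripts. Among the 23 members with a canonical transcript under 2000 nt, 20 were called higher and none lower, with a median log2FC of 0.71. Among the 15 longer members, 5 were called higher and 2 lower, with a median of 0.12. PSME4 has the longest canonical transcript of the tested members, at 7250 nt, and PSMB3 the shortest, at 762 nt. As a description over the 38 genes, which share their libraries, Spearman's rho between length and log2FC was -0.51 over 5 libraries, -0.30 over 6 and -0.05 in the co-treatment experiment. Of all genes of any length in the fit over 5 libraries, 13.2% were called higher and 12.8% lower. The cut at 2000 nt was a choice made here, and the split by length was not made for all genes. It therefore cannot be read as particular to the members. The part of transcript length in the fold changes was not tested.

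**Figure D5:**
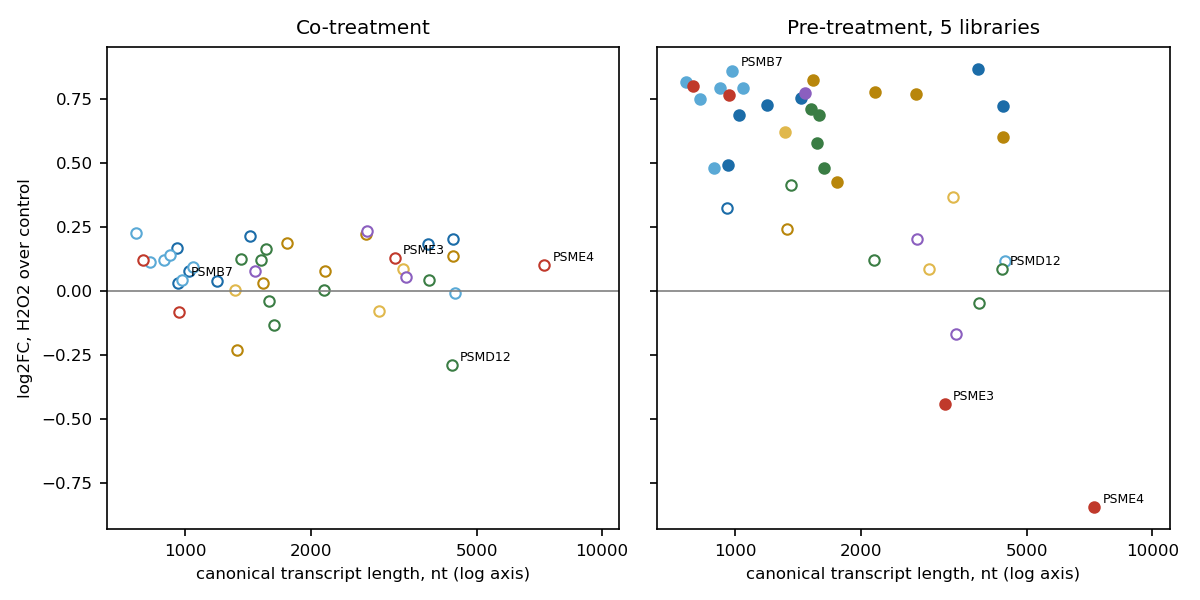
The log2FC of each member against the length of its canonical transcript in nt on a log axis, for co-treatment and for pre-treatment without control 3, where filled points have an adjusted p under 0.05 and colours give the role. Transcripts under 2000 nt have a median of 0.71 in the second panel and PSME4, at 7250 nt, lies lowest at -0.84, whereas the first panel shows no such slope.

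The responses of the experiments were compared with each other in an interaction test. With all 12 libraries, no member differed at an FDR under 0.05, where 0.0287% of the 24407 genes tested did, and 1 had an unadjusted p under 0.05, where 8.94% of all genes did. DESeq2 and limma-voom called no member either. The smallest p among the members belonged to PSME3, whose log2FC after pre-treatment minus that after co-treatment was -0.55 ± 0.23 (adjusted p = 0.544), followed by PSME4 at -0.73 ± 0.35 (adjusted p = 0.563) and PSMD12 at 0.29 ± 0.20 (adjusted p = 0.658). Over the 11 libraries without control 3 of the pre-treatment experiment, 6 members differed, 5 with a higher and 1 with a lower response to pre-treatment, where 3.32% of the 25668 genes tested were called higher and 4.70% lower. They were PSMB7, PSMC3, PSMD13, PSME1 and PSME2 on the higher side and PSME4 on the lower. Leaving out 1 more library gave between 0 and 20 members, with 0 without control 2 of either experiment and 20 without control 1 of the co-treatment experiment. The count was 1 to 3 without control 3, H2O2 culture 2 or H2O2 culture 3 of the co-treatment experiment or without control 1, H2O2 culture 1 or H2O2 culture 2 of the pre-treatment experiment.

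Genes that work beside the proteasome were examined in the same fits, from lists written with earlier results of these data known. In the co-treatment experiment, 42 genes of 6 such lists were tested, none was called and none had an unadjusted p under 0.05. In the pre-treatment experiment over 6 libraries, 43 were tested and none was called, while 5 had an unadjusted p under 0.05, a share of 11.6% beside the 11.2% of all genes. Over 5 libraries, 4 of the 6 assembly chaperone genes were called higher and none lower, among them PSMG1 at 0.81 ± 0.17 and PSMG3 at 0.76 ± 0.12, which help to build the alpha ring. Their median log2FC was 0.57. The counts of the other lists are to be read beside the 13.2% of all genes called higher and the 12.8% called lower in this fit, and 1 call among 8 or 9 genes is close to those shares. Of the 8 genes of proteins that bind the proteasome, SHFM1, a small lid subunit also known as SEM1, was called higher at 0.61 ± 0.18, and USP14, a deubiquitinase that binds the base, lower at -1.17 ± 0.13 (adjusted p = 0.00121). USP14 measured 83.1 and 93.1 CPM in controls 1 and 2, 31.7 CPM in control 3 and 35.6, 34.4 and 41.8 CPM after pre-treatment, so that controls 1 and 2 stood above the other libraries, as for PSME4. Of the 8 regulators of proteasome genes, NGLY1, the glycanase that acts on NFE2L1, was called higher at 0.48 ± 0.15. DDI2, the protease that cleaves NFE2L1, and AKIRIN2, a factor in the nuclear import of proteasomes, were called lower at -0.59 ± 0.14 and -1.05 ± 0.18. NFE2L1 and NFE2L2 themselves were not called, at -0.15 ± 0.12 (adjusted p = 0.392) and 0.08 ± 0.23 (adjusted p = 0.821). Of 12 genes for ubiquitin and its shuttles, 4 were called higher and 2 lower. UBB, which encodes ubiquitin, had a log2FC of 0.84 ± 0.13, and the shuttle gene UBQLN2 had -1.38 ± 0.18. PSMB10 was not called, at -0.38 ± 0.23 (adjusted p = 0.246). Among 9 tested proteasome pseudogenes, PSMD10P1 was called lower, at -1.41 ± 0.29, while its parent gene PSMD10 was called higher.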

How the data were processed

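Total RNA of 12 SH-SY5Y cultures was depleted of ribosomal RNA and sequenced. The authors checked reads with FastQC 0.11.8, trimmed them with cutadapt 2.10, mapped them to hg19 with HISAT2 2.1.0 and made the deposited counts per gene symbol with HTSeq 0.7.2, according to the submitters' processing notes. The counts are raw, per library. The annotation version and strand setting are not given in the sources used here, and 18 members overlap a gene on the opposite strand. The 2 deposited tables of the authors' own comparisons (log fold changes, mean log CPM, p-values and FDR) were not used.

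Counts were fitted in R 4.3.3 with edgeR 4.0.16 (TMM factors, quasi-likelihood test, Benjamini-Hochberg adjustment over all genes tested), separately for each experiment, and for the interaction of H2O2 and experiment in 1 fit of both. A gene was tested if at least n libraries, with n the size of the smaller group, reached the CPM that 5 counts give in the shallowest library. CPM per library use TMM factors over all 12 libraries. Fold changes come from each edgeR fit with its default prior count. A prior count of 2 was used for the log CPM behind the residual correlations. Alternatives included DESeq2 1.42.0 and limma 3.58.1 (voom). The fits were also run on simulated counts. These were drawn gene by gene without a shift shared by a whole library, so they do not bear on the differences between controls. Nothing says that replicates were independent cultures beyond their labels, so p-values measure the spread between these libraries, which may be partly technical. Lengths and positions are from an annotation lifted to GRCh37.

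Named members were the catalytic subunits, the 4 with the smallest p in each direction and experiment fit, the 3 with the smallest p between experiments, those that failed the filter, the 3 highest and 3 lowest in RPKM, and up to 3 genes per related list. Others are named where a count needed it, and NFE2L1 and NFE2L2 because they are introduced as regulators. The values of 1 named gene of a related list are not reported here. The members, lists and the fit without control 3 were chosen with earlier results of these data known.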

Additional observations from a re-analysis of the deposited data

Results flagged for a closer look

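For 6 members the response to pre-treatment differed from that to co-treatment in the interaction test over the 11 libraries without control 3 of the pre-treatment experiment (edgeR's quasi-likelihood test, adjusted over 25668 genes). Of all genes in this fit, 3.32% were called higher and 4.70% lower. The difference of log2FC, pre-treatment minus co-treatment, was -0.999 for PSME4 (adjusted p = 0.0173), 0.76 for PSMB7 (adjusted p = 0.0351), 0.79 for PSME1 (adjusted p = 0.0378), 0.62 for PSME2 (adjusted p = 0.0416), 0.67 for PSMD13 (adjusted p = 0.0418) and 0.74 for PSMC3 (adjusted p = 0.0468). With control 3 included, the same differences were -0.73 for PSME4, 0.29 for PSMB7, 0.29 for PSME1, 0.26 for PSME2, 0.29 for PSMD13 and 0.21 for PSMC3, and none passed. The count over 11 libraries also rested on single libraries of the co-treatment experiment. It became 0 without control 2 and 20 without control 1 of that experiment. Controls 1 and 2 of the pre-treatment experiment also held 0.800 and 0.830 reads outside genes per counted read, above all other libraries, and the part of this in the differences was not tested.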

How the results depend on the processing

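No member was called in the co-treatment experiment, the pre-treatment experiment over 6 libraries or the 12-library interaction test under any alternative that kept all libraries. Over 5 libraries, the count of 27 members became 0 with an absolute log2FC above 1 also required, and the median log2FC became 0.39 with library size alone. In the interaction over 11 libraries, the count of 6 became 1 with upper-quartile factors, 2 with library size alone and 13 without a filter. For alternative fits over 5 and 11 libraries, counts of members are given without the share of all genes called in the same fit. These counts alone therefore do not set the members apart from other genes. Fits without 1 library gave medians of 0.015 to 0.20 in the co-treatment experiment, 0 to 27 members and medians of 0.036 to 0.61 over 6 pre-treatment libraries (27 without control 3), 7 to 28 members and medians of 0.49 to 0.71 over 5 libraries, 0 to 6 members in the 12-library and 0 to 20 in the 11-library interaction. The cause was not tested in any of these. Over all genes, 3 (1 fit of all 12 libraries) to 535 (no filter) were called in the co-treatment experiment, against 132, and 0 to 705 (DESeq2) over 6 pre-treatment libraries, against 6.

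For libraries that share a replicate number, residual correlations were -0.0626, -0.0733 and -0.0660 in the co-treatment and -0.229, 0.0295 and -0.279 in the pre-treatment experiment, so the numbers were not taken to pair the cultures. With the replicate number as a block, members called were 0 in the co-treatment experiment, 0 over 6 and 30 over 5 pre-treatment libraries, and 0 and 12 in the interaction over 12 and 11 libraries.

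Signs of single members near 0 turned. Fits without 1 library spanned, in log2FC, PSMB5 -0.026 to 0.24, PSMB7 -0.095 to 0.20, PSME1 -0.20 to 0.014, PSME3 -0.0029 to 0.24 and PSME4 -0.018 to 0.20 in the co-treatment experiment, PSMB3 -0.042 to 0.81, PSMB6 -0.088 to 0.75 and PSMD12 -0.034 to 0.089 over 6 pre-treatment libraries, and PSMD12 -0.0028 to 0.14 over 5. Other settings gave over 6 libraries PSMD12 -0.0007 with DESeq2, PSMD12 -0.0007 with DESeq2's size factors, PSMD12 -0.0009 with 1 fit of all libraries and PSMD12 -0.036 with library size alone, and over 5 libraries PSMD12 -0.13 with library size alone and PSMD12 -0.03 with upper-quartile factors. With control 3 as the only control, an alternative chosen after seeing the data, the median was -0.26 and the log2FC turned to PSMA1 -0.11, PSMB3 -0.54, PSMB5 -0.38, PSMB6 -0.56, PSMB7 -0.32, PSMC2 -0.10, PSMC3 -0.44, PSMC6 -0.016, PSMD10 -0.12, PSMD12 -0.044 and PSME4 0.18, values with no test since 1 control has no spread. Each of the 38 members had at least 7437 reads over all libraries, whereas PSMA8 and PSMB11 were too low to test.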
